A study of Mus musculus with 8 samples.

Results

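Embryonic germ cells (EGCs), which are pluripotent cell lines grown out of primordial germ cells, were compared with germ cells taken from the embryo and with germ cells made in culture. The comparison took both EGC libraries of the series against all 6 germ cell libraries, so that it used 8 of 8 libraries, and it covered 11083 of the 20153 genes in the deposited table. Genes entered when they reached at least 1 FPKM (read fragments divided by transcript length in kilobases and by the library's mapped total) in at least 2 libraries. The question was which transcripts separate a pluripotent line from germ cells of every origin studied.

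The 4 groups held 2 libraries each. Primordial germ cells (PGCs) came from mouse embryos at E9.5, of strain Oct4gfpXCD1 and without passage, with about 250 cells a library. The EGC lines, called 4 and 7, were derived from sorted PGCs of the same age and strain and were at passage 6, with 500 cells a library. EGC culture used serum and LIF on a layer of mouse embryonic fibroblasts. In vitro PGCs (iPGCs, 1500 cells) and PGC-like cells (PGCLCs, 300 to 500 cells) were both made from embryonic stem cells of the BVSC line at passage 21. The iPGCs came from hanging drops and the PGCLCs from aggregates of epiblast-like cells. EGCs thus differed from the germ cell libraries together in passage, medium and, for 4 of the 6, in strain, and these cannot be told apart from cell state. Each EGC library stands for 1 line. The libraries were called biological replicates in the labels, without saying what was separate, and p-values measure only the spread between them. The RNA is from bulk samples, where fewer cells of a type and less RNA per cell cannot be told apart.

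PGCs are set aside from the epiblast by BMP signals that switch on Prdm1, Prdm14 and Tfap2c, 3 transcription factors that hold back the somatic programme and reopen pluripotency genes. They keep Pou5f1, Nanog and Sox2 active but do not form pluripotent lines until they are cultured with growth factors, when some convert to EGCs. EGCs resemble embryonic stem cells, contribute to chimaeras, and may carry erased or altered genomic imprints from their germ cell origin.

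Several measures of the libraries bear on what follows. Approximate depths were read from low FPKM values of single-transcript genes, each taken as 1 fragment at an assumed fragment length. They ran from 3.19 M reads in iPGC library 1 to 20.9 M in PGC library 1, and were 15.7 and 18.95 M in EGC lines 4 and 7. The EGC libraries held 8677 and 9280 genes at 1 FPKM or more, within the 7991 to 10039 of the germ cell libraries. PGC library 1 stood apart in Afp, Lyz2 and Pf4, transcripts of other embryonic cells. They were at 82.6, 62.1 and 27.2 FPKM there, and each was below 1 FPKM in the 7 other libraries. Over 22 endoderm markers, Afp among them, its summed level was 356 FPKM, against 406 in iPGC library 1 and 434 in PGCLC library 1. Over 16 markers of blood and endothelium, Lyz2 and Pf4 among them, it was 160 FPKM against 16.0 to 101 in the other libraries. The Y-linked gene Eif2s3y was listed at 0 in EGC line 4 and at 22.9 FPKM in line 7, against 7.27 to 50.9 FPKM in the germ cell libraries, so the EGC lines differed in sex chromosome transcripts. Over 19 markers of fibroblasts and mesenchyme, the summed level was 83.9 and 90.1 FPKM in EGCs and 133 to 255 FPKM in germ cells. The fibroblast collagens Col1a2 and Col3a1 were listed at 0 in both EGC lines, and Col1a1 was at 0.0142 and 0. Of the 7 markers tested, 3 had a positive relative difference (defined below) and 4 a negative one. Tagln was above all germ cell libraries in both EGC lines (2.80 and 2.80 FPKM against 0.0450 to 2.59) and Sparc below all, and Thy1 and Fn1 overlapped.

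Across the 11083 tested genes, 16 passed limma at a Benjamini-Hochberg adjusted p below 0.05, or 0.144%, with 10 higher in EGCs (0.0902%) and 6 lower (0.0541%). In 14 of the 16 both EGC libraries lay outside the range of all 6 germ cell libraries. Of the 10 higher, 6 were below 1 FPKM in every germ cell library (Mir379, Mir758, Mir453, Mir1951, Gm27446 and Rps3a3). They entered the test only through the EGC libraries in which they were high, so their calls follow in part from the filter and are not used as support. Of the 6 lower, Tnnt3 entered only through germ cells. An unadjusted p below 0.05 was reached by 1419 genes, of which 416 were higher and 1003 lower. Over all tested genes the log2 difference had a median of -0.26, and it was 0.07 against PGCs, -0.40 against iPGCs and -0.38 against PGCLCs alone. Differences are therefore given below relative to the median of the same comparison, as log2(FPKM + 1) in EGCs minus the equal-weight mean of the 3 germ cell groups with the standard error of the fit (2 against 6 libraries), while the p-values test the unshifted difference. Counted gene by gene, both EGC libraries were above all 6 germ cell libraries in 341 genes (3.08%) and below all 6 in 1010 (9.11%). Of these, 47 had entered only through the EGC libraries and 171 only through germ cells. With the libraries set to equal medians the same counts were 617 (5.57%) and 608 (5.49%), so the excess of lower genes went with the scaling. Without PGC library 1 the number of called genes was 55, with 24 higher and 31 lower.

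**Figure D1:**
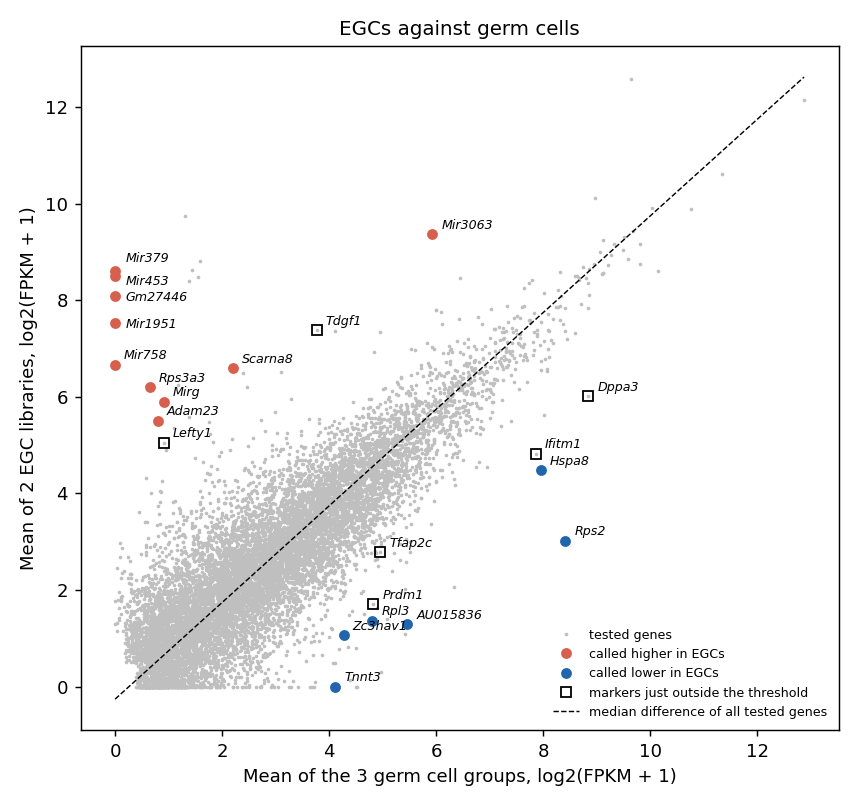
Each point is 1 of the 11083 tested genes, by its mean log2(FPKM + 1) over the 3 germ cell groups (horizontal) and over the 2 EGC libraries (vertical). Red marks the 10 genes called higher and blue the 6 called lower, open squares mark 6 named markers with an adjusted p above 0.05 in limma, and the dashed line lies at the median difference of -0.26.

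Mirg, a long noncoding RNA that hosts microRNAs at the far end of the imprinted Dlk1-Dio3 region, rose in EGCs. It had entered the test through germ cells as well, as both iPGC libraries were above 1 FPKM. The microRNA loci Mir379, Mir758 and Mir453 of this region were also called, but they entered only through the EGC libraries, and their values are given as a description. In the embryo the region's noncoding RNAs are made from the maternal chromosome as a long series of transcripts, Meg3 first, then Rian and Mirg, while Dlk1 and Rtl1 are made from the paternal one. Activity of the noncoding RNAs is known for marking mouse pluripotent lines of full developmental potential. The libraries were made from longer fragments of cDNA, so an entry for a microRNA locus here reads precursor or host transcript, not the mature microRNA. The mature sequences below, from RefSeq (GRCm38.p6), identify some of the loci that were above 0 in EGCs and show which share a seed. They are written 5′ to 3′ with the seed, bases 2 to 8, in capitals. The microRNA loci were chosen after their values were seen.
miR-379-5p: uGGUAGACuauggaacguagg
miR-1193-5p: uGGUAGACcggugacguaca
miR-379-3p: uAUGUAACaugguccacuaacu
miR-411-3p: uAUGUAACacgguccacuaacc
miR-411-5p: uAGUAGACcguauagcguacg
miR-758-5p: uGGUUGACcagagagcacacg
miR-758-3p: uUUGUGACcugguccacua
miR-544-5p: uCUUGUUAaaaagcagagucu
miR-544-3p: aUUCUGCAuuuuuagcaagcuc
miR-453: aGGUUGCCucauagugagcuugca
miR-1951: gUAGUGGAgacugguguggcua

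Among these, miR-379-5p and miR-1193-5p have the seed GGUAGAC, and miR-379-3p and miR-411-3p have the seed AUGUAAC. The last sequence, miR-1951, comes from chromosome 2 and is shown because its locus had the same pattern of values. All 14 microRNA loci looked up had a mature sequence in the table.

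Mirg (chr12:109729764-109749460, plus strand, GRCm38) was at 0.534 and 0.587 FPKM in PGCs, 2.27 and 2.52 in iPGCs, 0.350 and 0.164 in PGCLCs, against 66.8 and 51.4 in EGC lines 4 and 7. Both EGC lines were far above every germ cell library, and within the germ cells the iPGC libraries were the highest. The relative difference was 5.24 ± 0.46 on the log2 scale, with a limma adjusted p of 0.00411. Against each germ cell group alone the relative differences were 5.19 for PGCs, 4.54 for iPGCs and 5.96 for PGCLCs, with limma adjusted p of 0.00861, 0.0461 and 0.0111. These 3 comparisons share the EGC libraries, and of all tested genes 82 (0.74%), 13 (0.117%) and 11 (0.0993%) passed in them.

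The table held 61 entries from the start of Dlk1 to the end of Mirg (chr12:109452823-109749460), of which 48 were microRNA loci. They were split at Mir379, the first entry above 0.02 FPKM in an EGC line, so the absence of EGC values before it follows from the split. The 30 entries from Dlk1 to the last one before Mir379 include Dlk1, Meg3, Rtl1, Rian, 18 microRNA loci and 7 small nucleolar RNAs. None of these 30 was above 0.02 FPKM in any library. Meg3 reached 0.00378 FPKM in EGC line 7 and Rtl1 0.0108 in EGC line 4. An exact 0 in such a table can also be a failed estimate. The other 31 entries, from Mir379 to the end of Mirg, are 30 microRNA loci and Mirg itself. Of the 30 loci, 4 were above 0.02 FPKM in both EGC lines (Mir379, Mir758, Mir544 and Mir453), 8 in 1 line only and 18 in neither. EGC line 4 had 7 loci above that level and EGC line 7 had 9, while in the germ cell libraries Mir544 was the only one.

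Mir379 (chr12:109709060-109709125) was listed at 0 in all 6 germ cell libraries and at 222 and 677 FPKM in EGC lines 4 and 7. Mir758 (chr12:109712810-109712890) was likewise listed at 0 in germ cells and at 107 and 94.5 in EGCs. Mir453 (chr12:109735619-109735700), inside an intron of Mirg, was at 1632 and 80.1 FPKM in EGCs and listed at 0 elsewhere. All 3 loci were above 0 in both EGC lines alone, which the filter required of a locus listed at 0 in germ cells, and the levels of the 2 lines differed widely at Mir453. Mir544 did not: it was at 945 and 213 FPKM in EGCs, but also at 761 in PGC library 1, and listed at 0 in the 5 remaining libraries (limma adjusted p = 0.213). No fold is given where a group is listed at 0, since a 0 from this kind of estimate may be a failed one.

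The loci seen in 1 EGC line differed between the lines. Mir411 (342 FPKM), Mir329 (46.7) and Mir3072 (443) were above 0 in line 4 only. Mir1193 (29.9 FPKM), Mir666 (80.0), Mir667 (107), Mir654 (143.5) and Mir382 (101) were above 0 in line 7 only. FPKM of loci of this length divides few reads by a very short effective length, so that these values are imprecise, and whether an absent locus differs between the lines was not tested. The whole table held 520 microRNA entries, 48 of them in this region. Of the 520, 4 were above 0.02 FPKM in both EGC lines and in no germ cell library, and 3 of these were Mir379, Mir758 and Mir453. These 3 loci are the ones called above, so the count is a description and not support.

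**Figure D2:**
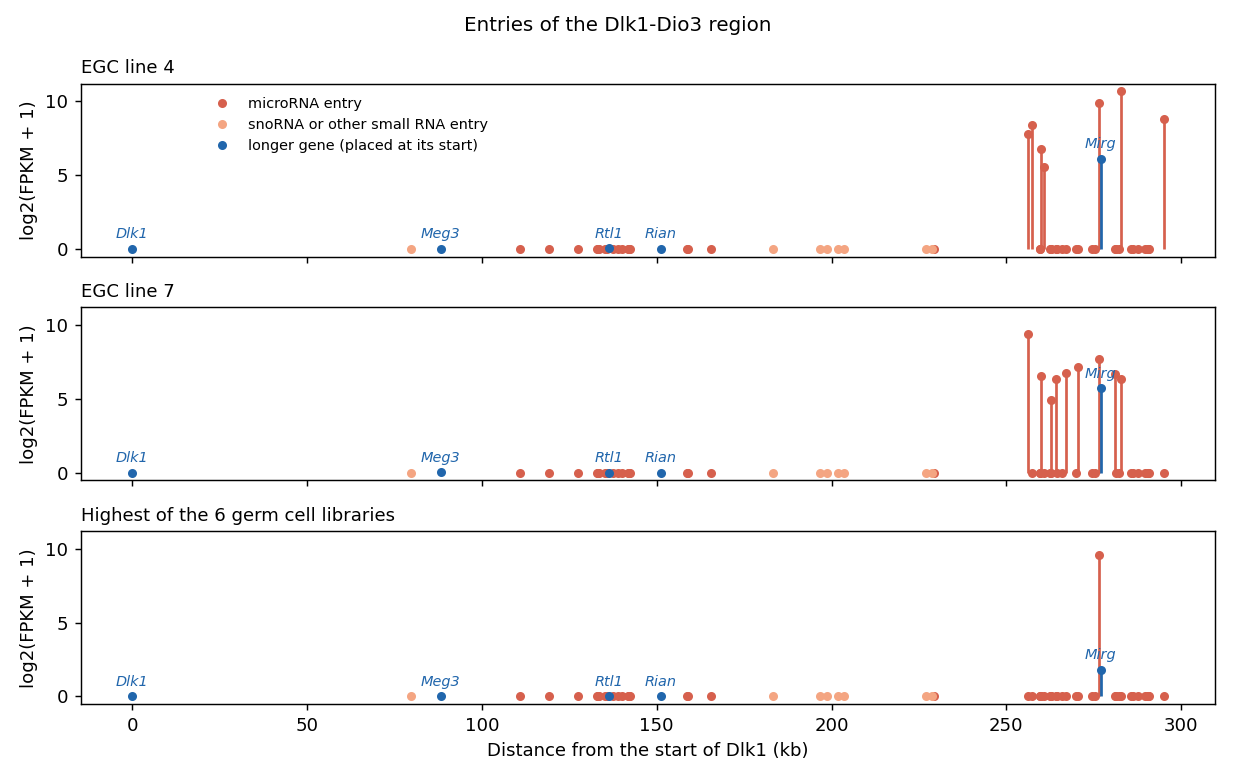
Entries of the Dlk1-Dio3 region by distance from the start of Dlk1 in kb (horizontal) and level as log2(FPKM + 1) (vertical), for EGC line 4, EGC line 7 and the highest of the 6 germ cell libraries. Left and right are split at Mir379, the first entry above 0.02 FPKM in an EGC line. All 30 entries on the left stay at or next to 0 in every panel, while 8 entries in EGC line 4 and 10 in EGC line 7 rise on the right, where only Mir544 and a low Mirg show in germ cells.

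The fourth of these entries, Mir1951, lies inside BC052040 on chromosome 2 and was at 122 and 277 FPKM in EGCs and listed at 0 in germ cells. Its host BC052040 was at 8.24 and 8.27 FPKM in EGCs and 1.89 to 13.4 in germ cells, so the host overlapped between the groups. Gm27446, a locus of 89 bases named PRINS in the deposited table, was at 258 and 288 FPKM in EGCs and listed at 0 in germ cells. It lies inside Etl4, which was at 172 and 93.0 FPKM in EGCs and 22.4 to 101 in germ cells. The processed pseudogene Rps3a3 was at 63.3 and 82.7 FPKM in EGCs and 0.258 to 0.990 in germ cells, but reads of such a copy cannot be separated with certainty from those of its parent. The remaining short loci called higher, Mir3063 and Scarna8, overlapped: Mir3063 was at 1120 and 384 FPKM in EGCs and 206 to 1250 in iPGCs and PGCLCs, and Scarna8 at 154 and 58.6 against 64.8 and 141 in PGCLCs. Mir3063 was at or next to 0 in PGCs, and Scarna8 was listed at 0 in PGCs and iPGCs. Mir1951, Gm27446 and Rps3a3 had entered the test only through the EGC libraries. These 5 were named after their values were seen.

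The rule for naming set out with the methods was met by 5 genes: Mirg, Adam23, Hspa8, Zc3hav1 and Tnnt3. Adam23, a membrane protein of the ADAM family that lacks protease activity and binds integrins on neurons, rose. It was at 0.131 and 0.505 FPKM in PGCs, 0.908 and 1.95 in iPGCs, 0.303 and 1.19 in PGCLCs, against 37.8 and 52.0 in EGCs (chr1:63445891-63596276). Both EGC lines were above all germ cell libraries, and none of the latter reached 2 FPKM. The relative difference was 4.96 ± 0.50 (limma adjusted p = 0.0123). Against PGCs, iPGCs and PGCLCs alone the limma adjusted p was 0.0181, 0.0662 and 0.0400, so Adam23 did not pass against iPGCs.

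Hspa8, the constitutive chaperone of the HSP70 family (chr9:40800984-40810087), fell. It was at 174 and 149 FPKM in PGCs, 345 and 271 in iPGCs, 387 and 237 in the PGCLC libraries and 21.6 and 21.1 in EGCs. All 6 germ cell libraries lay well above the EGC lines, which were nearly equal. The relative difference was -3.21 ± 0.31 (limma adjusted p = 0.00411), and Hspa8 passed against each germ cell group alone (limma adjusted p of 0.0272, 0.00956 and 0.0111 for PGCs, iPGCs and PGCLCs). Hspa8 has many processed copies in the genome, among which reads can be shared.

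Zc3hav1, an antiviral zinc finger protein that targets viral RNA for decay (chr6:38305286-38354603), also fell. It was at 10.0 and 8.96 FPKM in PGCs, 19.6 and 18.5 in iPGCs, 30.2 and 36.6 in PGCLCs, against 1.32 and 0.899 in EGCs. The groups did not overlap, and PGCLCs were the highest. The relative difference was -2.94 ± 0.40 (limma adjusted p = 0.0297). Zc3hav1 passed against PGCLCs alone (limma adjusted p = 0.0360), but not against PGCs (0.0748) or iPGCs (0.0884). The call was lost under 14 of 25 other settings, with adjusted p from 0.0170 to 0.807.

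Tnnt3, a troponin subunit of fast skeletal muscle whose gene lies near the imprinted H19 and Igf2 genes on chromosome 7, was listed at 0 in both EGC lines, and so had entered the test through germ cells alone. It was at 40.1 and 10.9 FPKM in PGCs, 4.01 and 3.65 in iPGCs, and 63.9 and 35.2 in PGCLCs (limma adjusted p = 0.0461). The iPGC libraries were the lowest germ cells, and the comparison with iPGCs alone gave a limma adjusted p of 0.345. The call was lost under 13 of 25 other settings, with adjusted p from 0.00863 to 1.

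Of the 3 other genes called lower, 2 encode ribosomal proteins. Rps2 was at 143 to 567 FPKM in germ cells and 2.17 and 19.8 in EGCs (limma adjusted p = 0.0218), and Rpl3 at 8.50 to 61.9 and 1.19 and 2.02 (limma adjusted p = 0.0302). Across 87 tested genes of cytosolic ribosomal proteins these 2 were the only ones called, both EGC lines were below all germ cell libraries in 17 and above in 1 (9.11% and 3.08% of all tested genes), and the median relative difference was -0.18. Such genes have many processed copies, among which reads can be shared. The third, AU015836 on the X chromosome, was at 20.6 to 63.4 FPKM in germ cells and 2.78 and 0.593 in EGCs (limma adjusted p = 0.0341). These 3 were named after their values were seen.

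Regulators of germ cell fate lay below the germ cell range in EGCs without passing the adjusted threshold. All 3 factors of PGC specification, Prdm1, Prdm14 and Tfap2c, had both EGC lines below all 6 germ cell libraries, beside 9.11% of all tested genes, and their median relative difference was -1.91. This list and all lists below were chosen with earlier results of these data known. Their counts are therefore a description and not support. Prdm1 (Blimp1), a repressor of the somatic programme, was at 14.9 and 42.5 FPKM in PGCs, 21.2 and 22.8 in iPGCs, 40.6 and 32.99 in the PGCLC libraries and 2.34 and 2.20 in EGCs. The lowest germ cell library was thus still several times above the EGC lines. Its relative difference was -2.86 ± 0.47 (limma adjusted p = 0.0550). Tfap2c, an AP-2 factor downstream of Prdm1, was at 23.1 and 30.2 FPKM in PGCs, 26.9 and 34.4 in iPGCs, 37.0 and 30.4 in PGCLCs, against 5.77 and 5.99 in EGCs. Its germ cell values were close together, and none approached the EGC lines. On the log2 scale relative to the median, the difference was -1.91 ± 0.37 (limma adjusted p = 0.0788). Prdm14, which represses de novo methylation and FGF signalling, was at 4.29 to 20.8 FPKM in germ cells and 0.949 and 1.38 in EGCs (relative difference -1.85 ± 0.57, limma adjusted p = 0.210).

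Without PGC library 1, the one with Afp, Lyz2 and Pf4, the unshifted log2 differences were -3.36 for Prdm1, -2.23 for Tfap2c and -2.14 for Prdm14. With all libraries they were -3.12, -2.17 and -2.10. Prdm1 passed in 8 of 25 other settings in all, with adjusted p from 0.0152 to 0.677, and Tfap2c in 1, with adjusted p from 0.0483 to 0.859.

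The wider set of early germ cell genes had 15 tested members of 20, of which none passed, and both EGC lines were below all germ cell libraries in 4 and above in 2, beside 9.11% and 3.08% of all tested genes. The list's median relative difference was -1.15, and 1 of the 4 below had entered the test only through germ cells. Dppa3 (Stella), which shields the maternal genome from demethylation after fertilisation, was at 409 and 574 FPKM in PGCs, 423 and 317 in iPGCs, 726 and 400 in the PGCLC libraries and 40.3 and 101 in EGCs. The groups were well apart, with EGC line 7 above line 4. Relative to all genes the log2 difference was -2.56 ± 0.41 (limma adjusted p = 0.0507), and Dppa3 passed with equal library medians (0.0420) and without PGC library 1 (0.0460). Over 25 other settings its adjusted p ran from 0.0258 to 0.677. Ifitm1 (fragilis2), an interferon-induced membrane protein that marks nascent PGCs, was at 149 and 227 FPKM in PGCs, 232 and 316 in iPGCs, 309 and 203 in PGCLCs, against 14.5 and 50.7 in EGCs. The EGC lines were again the lowest, at a relative difference of -2.78 ± 0.48 (limma adjusted p = 0.0592). Its relatives overlapped: Ifitm3 was at 67.4 and 129 FPKM in EGCs and 99.1 to 599 in germ cells, and Ifitm2 at 45.7 and 109 against 37.5 to 219.

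Not all germ cell genes were low in EGCs. The RNA-binding protein genes Lin28a and Elavl2 had both EGC lines above all germ cell libraries, Lin28a at 38.49 and 48.3 FPKM against 6.87 to 38.46 and Elavl2 at 26.1 and 13.4 against 4.43 to 12.5, neither past the test (limma adjusted p of 0.293 and 0.424). With equal library medians Elavl2 overlapped. Nanos3, which protects migrating PGCs from apoptosis, was at 0 and 0.906 FPKM in EGCs and 0.737 to 22.3 in germ cells, and Dnd1, its partner in mRNA control, at 2.33 and 2.08 against 0.732 to 8.86. Both overlapped. Later germ cell genes, which are normally activated as methylation is lost, had 21 tested members. Of these none passed, and EGCs were below all germ cell libraries in 2 (Asz1 and Stk31, 9.52% of the list beside 9.11% of all tested genes). Both had entered the test only through germ cells. Dazl, the licensing factor of gametogenesis, was at 1.12 and 0.805 FPKM in EGCs, above PGCs (0 and 0.156) and below the cells made in culture (4.26 to 11.9).

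Receptors and adhesion molecules used by migrating germ cells were examined next. In 7 of 13 tested members both EGC lines were below all germ cell libraries (5 with equal library medians), in none above, and none passed. Of all tested genes 9.11% were below, and 5.49% with equal library medians. Itgb3 and Cxcr4 entered the test only through germ cells. Kit, the receptor for stem cell factor that PGCs need to survive, was at 35.045 and 96.5 FPKM in PGCs, 18.1 and 21.003 in iPGCs, 49.3 and 30.4 in the PGCLC libraries and 9.59 and 11.3 in EGCs (relative difference -1.42 ± 0.46, limma adjusted p = 0.214). Itgb3 (CD61), an integrin used to sort germ cells, was at 2.64 to 19.07 FPKM in germ cells, with PGCs the highest, and 0.0119 and 0.250 in EGCs (relative difference -2.62 ± 0.49, limma adjusted p = 0.0821). Its partner Itgav was at 4.66 and 2.76 FPKM against 7.40 to 27.6. The chemokine receptor Cxcr4, which guides PGCs to the gonad, was listed at 0 in both EGC lines and at 0.367 to 9.84 FPKM in germ cells.

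**Figure D3:**
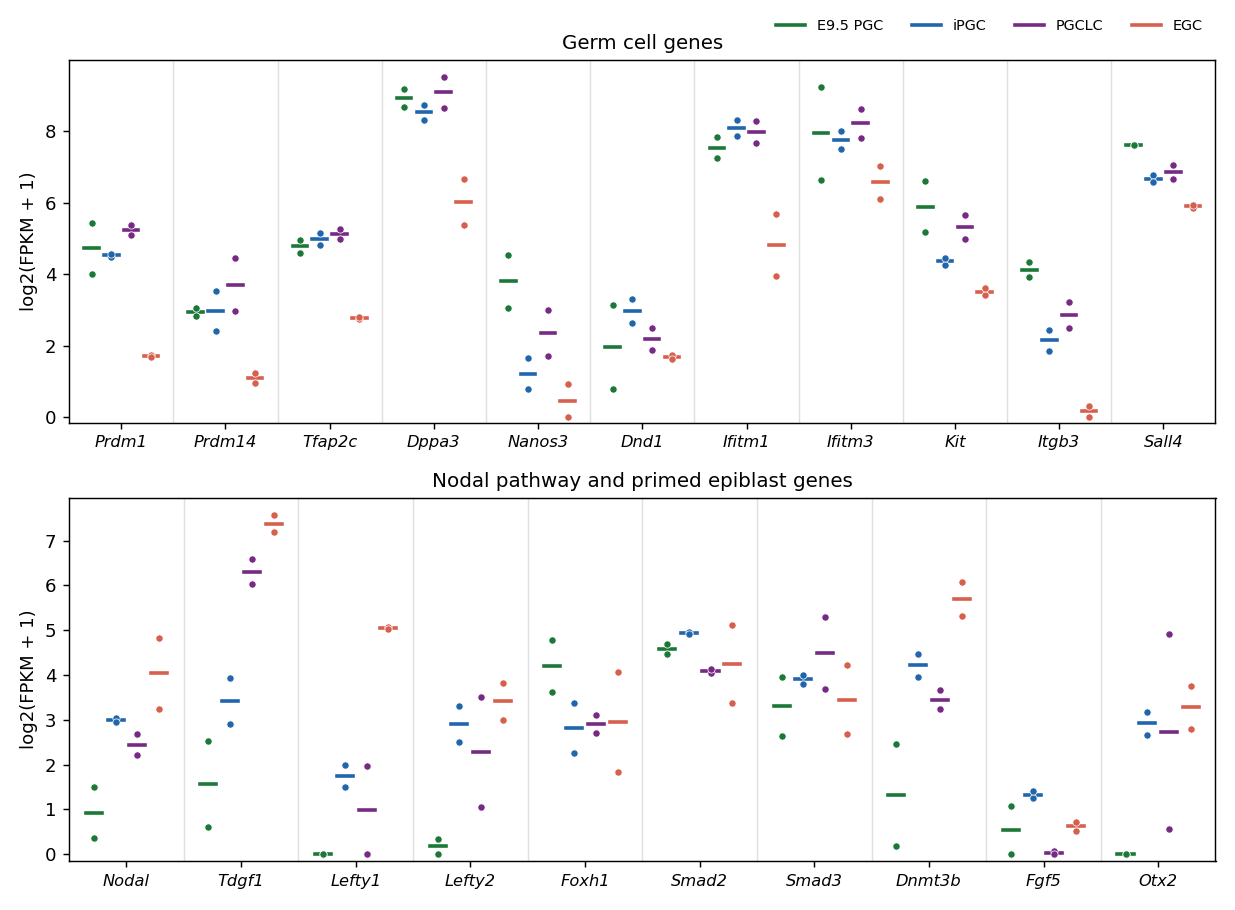
Level of 11 germ cell genes (upper panel) and 10 genes of the Nodal pathway and primed epiblast (lower panel) as log2(FPKM + 1), with 1 point per library and a bar at the mean of the 2 libraries of a group. EGC points lie below all 6 germ cell points for Prdm1, Prdm14, Tfap2c, Dppa3, Ifitm1, Kit, Itgb3 and Sall4, and above all 6 for Nodal, Tdgf1, Lefty1 and Dnmt3b.

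Core pluripotency genes, which germ cells and pluripotent lines share, lay mostly within the germ cell range. Of 17 tested core genes none passed, 2 were above (Tdgf1 and Lin28a) and 3 below the germ cell range (Sox2, Sall4 and Esrrb, of which 2 with equal library medians), and the median relative difference was 0.11. Of all tested genes 3.08% were above and 9.11% below. Pou5f1 (Oct4) was at 83.5 and 65.8 FPKM in EGCs and 24.7 to 327 in germ cells, and Nanog at 46.9 and 45.3 against 6.69 to 90.9. Both factors were thus present in both EGC lines and lay inside the germ cell range. Sox2 was at 10.8 and 17.7 FPKM against 17.8 to 31.8, and Sall4, a zinc finger partner of Pou5f1, at 56.7 and 60.3 against 93.6 to 194 (relative difference -0.89 ± 0.29, limma adjusted p = 0.189).

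Naive pluripotency genes were mixed. Of 21 tested members none passed, both EGC lines were above all germ cell libraries in 2 (4 with equal library medians) and below in 3, and the median relative difference was 0.43. The shares of all tested genes were 3.08% above (5.57% with equal library medians) and 9.11% below. Zfp42 (Rex1), a marker of naive stem cells, was at 17.0 and 25.1 FPKM in EGCs against 3.43 to 9.22 in germ cells (relative difference 1.92 ± 0.48, limma adjusted p = 0.227). Esrrb, an orphan nuclear receptor of the same network, ran the other way at 22.9 and 20.6 against 26.6 to 51.0, and Klf2 was at 5.15 and 9.13 against 7.39 to 93.1. Klf4, at 3.25 and 6.93 against 0 to 14.8, overlapped.

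Several genes of the Nodal pathway were higher in both EGC lines than in every germ cell library, and most overlapped. Nodal is a TGF-beta ligand that acts with its co-receptor Tdgf1 (Cripto) through activin receptors and Smad2 or Smad3 with Foxh1, and it switches on its own inhibitors Lefty1 and Lefty2. In 4 of 18 tested members both EGC lines were above all germ cell libraries and in none below, beside 3.08% and 9.11% of all tested genes. These were Nodal, Tdgf1, Lefty1 and Ltbp1, and with equal library medians Lefty2 took the place of Ltbp1. None passed, and the median relative difference of the list was -0.05, with 8 members above 0 and 10 below.

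Among ligands and inhibitors, Nodal was at 0.280 and 1.83 FPKM in PGCs, 7.18 and 6.69 in iPGCs, 5.46 and 3.62 in PGCLCs, against 27.5 and 8.47 in EGCs. EGCs were the highest, although line 7 lay close to the iPGCs (relative difference 2.17 ± 0.59, limma adjusted p = 0.253). Lefty1 was listed at 0 in PGC libraries 1 and 2 and in PGCLC library 2, at 2.99 and 1.84 FPKM in iPGCs and 2.94 in PGCLC library 1, and at 32.6 and 31.8 in EGCs. No germ cell library exceeded 2.99 FPKM, so the groups were far apart. Its relative difference was 4.40 ± 0.60 (limma adjusted p = 0.0505), and Lefty1 passed in 10 of 25 other settings, among them equal library medians (0.0364) and the fit without PGC library 1 (0.0447), with a range from 0.0140 to 0.809. Lefty2 overlapped, at 7.00 and 13.2 FPKM against 0 to 10.4.

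The co-receptor Tdgf1 was at 0.534 and 4.78 FPKM in PGCs, 14.2 and 6.54 in iPGCs, 95.7 and 64.0 in the PGCLC libraries and 189 and 145 in EGCs. The germ cells ran from almost none in PGCs to levels in PGCLCs that came near those of EGCs. On the log2 scale relative to the median, the difference was 3.87 ± 0.56 (limma adjusted p = 0.0592), and against PGCLCs alone the limma adjusted p was 0.537. Tdgf1 passed in 9 of 25 other settings, with adjusted p from 0.0152 to 1. The transducers overlapped between the groups: Smad2 was at 9.45 and 33.7 FPKM in EGCs against 15.5 to 30.4, Smad3 at 17.6 and 5.42 against 5.23 to 38.5, and Foxh1 at 15.9 and 2.55 against 3.78 to 26.5.

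Prdm1 and Tdgf1 lay on opposite sides of the germ cell range in EGCs, and their promoters are printed to show how their base composition and motifs differ. Each runs from 250 bases before to 50 after the annotated start, on the minus strand, from RefSeq (GRCm38.p6), and capitals mark matches on either strand to the motifs TGTNNATT (Foxh1) and GTCTG (Smad).
Tdgf1, chr9:110946109-110946408: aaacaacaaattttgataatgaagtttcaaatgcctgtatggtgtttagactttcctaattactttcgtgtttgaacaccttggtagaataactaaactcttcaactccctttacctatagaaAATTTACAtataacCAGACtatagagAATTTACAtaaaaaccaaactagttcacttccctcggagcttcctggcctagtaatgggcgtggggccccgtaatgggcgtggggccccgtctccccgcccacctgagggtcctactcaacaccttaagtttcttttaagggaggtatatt
Prdm1, chr10:44458699-44458998: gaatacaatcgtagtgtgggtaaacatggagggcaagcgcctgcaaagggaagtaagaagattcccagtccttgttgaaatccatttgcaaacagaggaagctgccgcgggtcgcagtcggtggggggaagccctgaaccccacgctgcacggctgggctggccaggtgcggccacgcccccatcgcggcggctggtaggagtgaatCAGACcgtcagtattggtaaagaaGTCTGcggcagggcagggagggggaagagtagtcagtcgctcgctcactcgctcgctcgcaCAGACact

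The Tdgf1 promoter held 2 matches to the Foxh1 motif and 1 to the Smad motif, and 7 CpG. The Prdm1 promoter held none of the former and 3 of the latter, and 20 CpG. In GENCODE M21 Prdm1 extends further upstream (chr10:44437177-44528501), so its printed stretch lies inside that span. The Tdgf1 stretch lies at the start of its gene (chr9:110939603-110946158). Of 32851 promoters of this length in the table, 12.2% held the Foxh1 motif and 49.6% the Smad motif, and the median was 7 CpG. An AP-2 motif, GCCNNNGGC, was in 16.6% of promoters and in neither of these. Matches are a description of the letters and not of binding.

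Primed epiblast genes, which mark the state that follows naive pluripotency, had no called member among 14 tested. Their median relative difference was 0.56, with 13 members above 0 and 1 below. Both EGC lines were above all germ cell libraries in 1 (3 with equal library medians) and below in none, beside 3.08% (5.57%) and 9.11% of all tested genes. That 1 was Dnmt3b, a de novo DNA methyltransferase, at 66.1 and 38.8 FPKM in EGCs. It was at 4.52 and 0.141 in PGCs, 21.3 and 14.5 in iPGCs, and 11.6 and 8.44 in PGCLCs. PGCs were the lowest and EGCs the highest (relative difference 2.95 ± 0.62, limma adjusted p = 0.176), and Dnmt3b passed without PGC library 1 (0.0320), in 1 of 25 other settings. Fgf5 and Otx2, which mark the primed state more narrowly, overlapped, at 0.649 and 0.435 FPKM in EGCs against 0 to 1.65 for Fgf5 and 12.6 and 5.95 against 0 to 29.0 for Otx2. Among 27 genes of DNA methylation and demethylation none passed, both EGC lines were above the germ cells in 1 (Dnmt3b) and below in 3 (Dnmt1, Gadd45a and Dppa3), or 3.70% and 11.1%, near the shares of all tested genes.

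Of the 23 tested FGF genes none passed, and both EGC lines were above all germ cell libraries in 2 (8.70%) and below in 3 (13.04%), beside 3.08% and 9.11% of all tested genes. The ligands Fgf15 and Fgf17 were above, at 6.47 and 2.05 FPKM against 0 to 0.480 and at 13.6 and 3.25 against 0 to 0.322, and both had entered the test only through the EGC libraries. The receptors Fgfr1 and Fgfr2 and the Ets factor Etv5, a target of the pathway, were below. Fgfr2 was at 0.358 and 4.94 FPKM in EGCs and 16.8 to 31.9 in germ cells (relative difference -2.89 ± 0.57, limma adjusted p = 0.0886), and Etv5 at 26.5 and 25.8 against 47.8 to 207 (limma adjusted p = 0.189). Among 21 tested BMP genes none passed either, and EGCs were below all germ cells in 3 (9.11% of all tested genes), of which 1 remained so with equal library medians (5.49%). That 1 was Id1, an inhibitor of differentiation and direct BMP target, listed at 0 in both EGC lines and at 1.43 to 6.27 FPKM in germ cells (limma adjusted p = 0.180). Of the 3 BMP genes below, 2 had entered the test only through germ cells, Id1 among them. Crabp1, which binds retinoic acid, was at 0 and 1.93 FPKM in EGCs and 3.94 to 65.6 in germ cells (limma adjusted p = 0.0886).

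Imprinted genes outside the Dlk1-Dio3 region were counted by which parent's copy is normally active. Of 16 tested genes made from the maternal copy, both EGC lines were below all germ cell libraries in 4 (H19, Grb10, Igf2r and Tssc4) and above in none, or 25.0% below beside 9.11% of all tested genes, at a median relative difference of -0.61. Of 23 made from the paternal copy, they were below in 3 (Igf2, Ndn and Peg12) and above in 2 (Snrpn and Zdbf2), or 13.04% and 8.70% beside 9.11% and 3.08%, at a median of 0.39. Tssc4, Igf2, Ndn and Peg12 had entered the test only through germ cells. None passed in either list, and the difference between the lists was not tested. H19, a noncoding RNA of chromosome 7, was at 111 and 49.4 FPKM in PGCs, 35.7 and 43.4 in iPGCs, 117 and 244 in PGCLCs, against 0.615 and 9.82 in EGCs. Every germ cell library was above both EGC lines, line 4 being the lowest (relative difference -4.00 ± 0.70, limma adjusted p = 0.0723). Its neighbour Igf2, a growth factor controlled by the same imprint from the other parental copy, was at 81.0 and 9.13 FPKM in PGCs, 48.6 and 47.6 in iPGCs, 4.24 and 87.7 in the PGCLC libraries and 0.0907 and 0.396 in EGCs. It was thus low in EGCs as well, in spite of wide scatter between germ cell replicates (relative difference -4.41 ± 1.07, limma adjusted p = 0.176).

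In glucose transport and glycolysis 20 of 23 tested genes had a positive relative difference, the median was 0.82, and both EGC lines were above all germ cell libraries in 2, Eno2 and Ldha (9 with equal library medians, below in none). Of all tested genes 3.08% were above, and 5.57% with equal library medians. None passed. Ldha, which makes lactate, was at 175 and 185 FPKM in EGCs against 38.1 to 131, and Eno2, an enolase also used as a neuronal marker, at 13.3 and 8.90 against 0 to 3.94 (limma adjusted p of 0.282 and 0.0821). The summed level of the list did not separate the groups, at 1626 and 1365 FPKM in EGCs against 690 to 1947, with PGCs the lowest. For 25 tested genes of oxidative phosphorylation the median was -0.28, both EGC lines were below all germ cell libraries in 5 (4 with equal library medians) and above in none, beside 9.11% (5.49%) of all tested genes below, and none passed.

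Upp1, which encodes uridine phosphorylase, was at 0.220 and 0.105 FPKM in PGCs, 23.6 and 9.37 in iPGCs, 22.5 and 49.4 in PGCLCs, against 115 and 70.1 in EGCs (relative difference 3.65 ± 0.51, limma adjusted p = 0.0550). Trh, the precursor of thyrotropin-releasing hormone, was at 1.14 to 12.9 FPKM in germ cells and 109 and 72.9 in EGCs (relative difference 4.36 ± 0.62, limma adjusted p = 0.0550). Both had no overlap between the groups, and both passed with equal library medians (0.0420 and 0.0392). They passed in 7 and 8 of 25 other settings. Against PGCs alone both passed (limma adjusted p of 0.00714 for Upp1 and 0.0421 for Trh). Neither passed against iPGCs (0.293 and 0.289) or PGCLCs (0.374 and 0.106).

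Neural genes were included as markers of differentiated cells that an EGC culture could hold. Like the other lists, this one was chosen with earlier results of these data known, so its counts are a description and not support. Of 9 tested members, 5 had both EGC lines above all germ cell libraries, beside 3.08% of all tested genes, and none below, at a median relative difference of 2.51. Adam23, described above, was the 1 that passed. Stmn2, a microtubule regulator of growing axons, was at 0.0535 and 0.0606 FPKM in PGCs, 20.2 and 5.80 in iPGCs, 1.87 and 3.43 in the PGCLC libraries and 38.2 and 27.9 in EGCs (relative difference 3.50 ± 0.56, limma adjusted p = 0.0821). The neural transcription factor Pax6 was at 5.29 and 4.79 FPKM in EGCs against 0 to 1.24, and the axonal proteins Crmp1 and Nefl at 5.54 and 5.80 against 0 to 1.17 and at 11.7 and 4.97 against 0 to 2.36. Over all 15 neural markers with an entry the summed level was 127 and 106 FPKM in EGCs and 3.99 to 70.4 in germ cells, and Dcx and Neurog2, which define young neurons, were listed at 0 in both EGC lines. The part of any differentiated cells in these values was not tested.

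**Figure D4:**
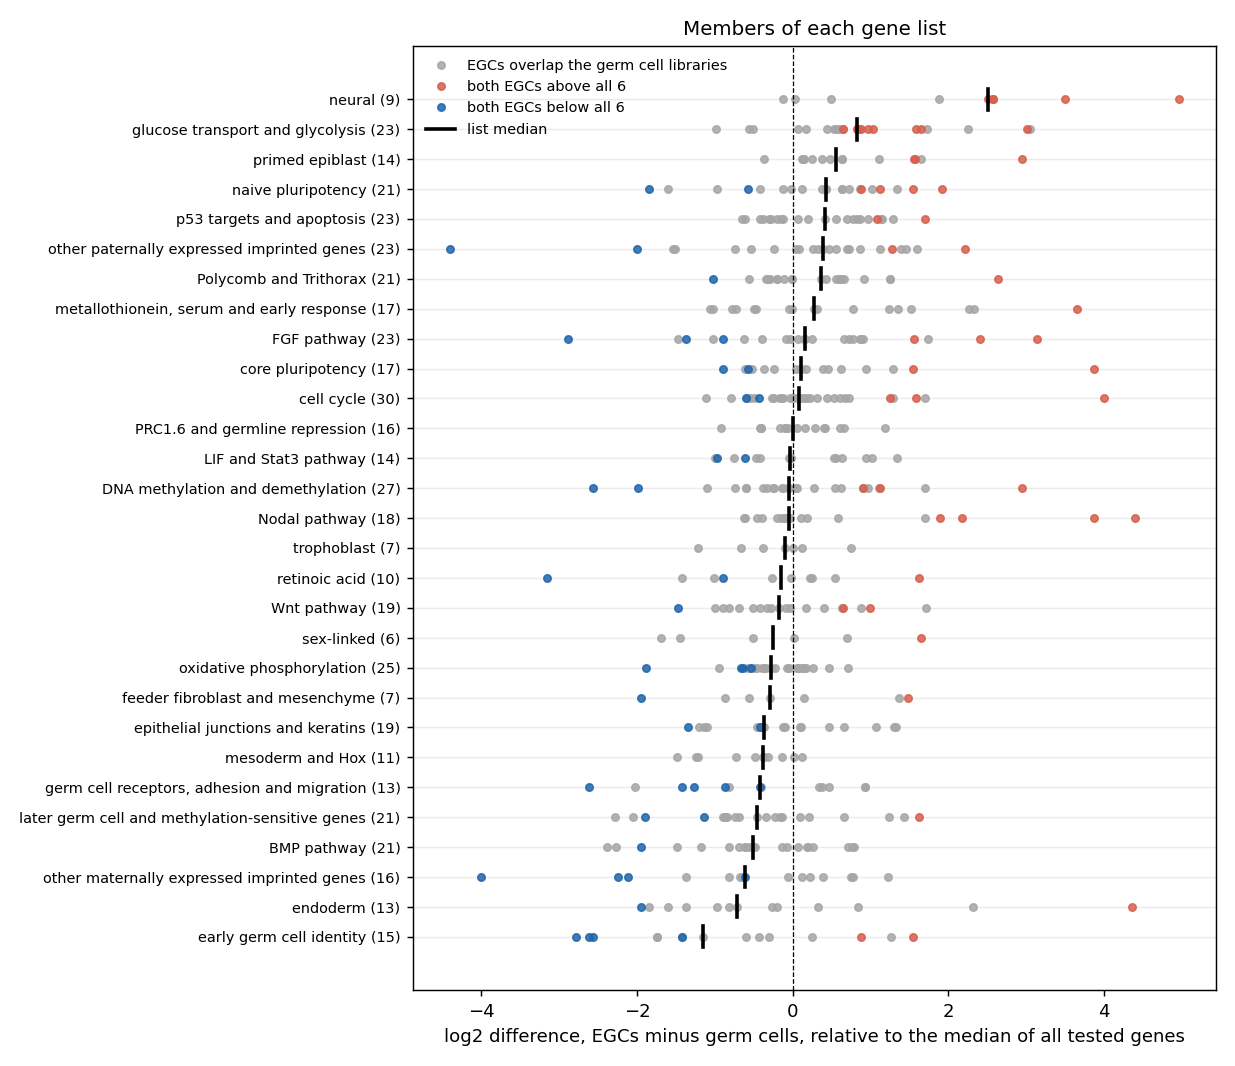
Relative log2 difference, EGCs minus germ cells, of every tested member of the gene lists with 5 or more tested members (number in parentheses), with a black bar at each list's median. Red and blue points are genes with both EGC libraries above or below all 6 germ cell libraries after setting library medians equal; early germ cell genes have the lowest median (-1.15) and neural genes the highest (2.51).

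Among the remaining lists, Cbx7, a Polycomb subunit common in stem cells, was at 139 and 186 FPKM in EGCs against 14.8 to 94.99 (limma adjusted p = 0.194, and 0.0216 without PGC library 1, the 1 of 25 other settings where it passed). Cyclin D1 (Ccnd1) was at 89.3 and 59.6 FPKM against 0.0858 to 24.8 (limma adjusted p = 0.234), and the survival factor Mcl1 at 65.2 and 52.6 against 13.5 to 27.6 (limma adjusted p = 0.207). Sparc, a secreted matrix protein of endoderm and fibroblasts, was at 13.3 and 36.6 FPKM in EGCs and 76.6 to 144 in germ cells (limma adjusted p = 0.106). None of these passed. Of 21 tested Polycomb and Trithorax genes, both EGC lines were above all germ cell libraries in 1 and below in 2. Of 30 cell cycle genes they were above in 2 and below in 3. The counts were 2 and 0 of 23 genes of p53 and apoptosis, and 1 and 1 of 13 endoderm genes. Among all tested genes 3.08% were above and 9.11% below. Of 16 genes of the PRC1.6 complex and germline repression, both EGC lines were outside the germ cell range in none, beside the same shares.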

How the data were processed

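RNA of 8 mouse libraries had been amplified with an Ovation kit, with spike-in RNA added, and sequenced as 50-base single-end reads, per the labels' protocols. The authors deposited FPKM with 1 column per library. TopHat2, Cufflinks and GRCm38 (mm10) are named in the submitters' processing notes. For versions, annotation and strand, the sources used here give nothing. The 20171 entries held 20153 gene identifiers, and of repeated identifiers the entry with the largest mean was kept (18 entries dropped). GENCODE M21 held 19747 of the identifiers and supplied symbols and positions.

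A gene was tested if 2 or more libraries reached 1 FPKM. The test was limma 3.58.1 in R 4.3.3, on log2(FPKM + 1) with a variance trend and robust fit. All 4 groups shared 1 spread, with 4 residual degrees of freedom, and two-sided p-values were adjusted after Benjamini and Hochberg, with a threshold of 0.05. Such differences understate the change of low genes. The step was tested on simulated data.

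Genes were named if called, with both EGC libraries outside all germ cell libraries, a mean of at least 10 FPKM on the higher side, and not predicted, ribosomal, small RNA or pseudogene, up to 15 per direction. Members of 33 gene lists were named with their values. A listed gene is not reported here and was left out of its list's counts. Members, lists and rule were chosen with earlier results of these data known, so the counts of the lists are not support. Other settings were pseudocounts of 0.1 and 5, 3 filters, 2 scalings, variance models, group choices, call definitions and a replicate block. Small RNA genes were also removed, which changed the scaling between libraries too, and each library was left out in turn.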

Additional observations from a re-analysis of the deposited data

How the results depend on the processing

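The smallest called difference was 3.20 on the log2 scale, and without read counts the depth is approximate. All 34 genes tracked kept their direction in every setting run. The number of called genes (16, with 10 higher and 6 lower) became 25 with 14 lower at a pseudocount of 0.1, had 2 lower at a pseudocount of 5, and became 30 (16 higher, 14 lower) with a filter at 5 FPKM. It was 35 (24 higher, 11 lower) with quantile normalization, 27 (19 higher) with equal library medians, 32 (16 higher, 16 lower) with library weights and 29 (18 higher, 11 lower) without the iPGC group. A call required against each germ cell group by the largest of 3 p-values left 5, all higher and 0 lower (Rps3a3, Mir379, Mir758, Mir1951 and Gm27446, each of which had met the filter only through the EGC libraries, so that none was at 1 FPKM or more in any germ cell library), and a minimum log2 difference of 1 left 9 with 1 lower. Leaving out 1 library gave 5 to 55 calls, 5 to 24 higher and 0 to 31 lower: 55 without PGC library 1, 25 without PGC library 2, 10 without iPGC library 1, 7 and 9 without PGCLC libraries 1 and 2, and 5 and 7 without EGC lines 4 and 7. Mirg lost its call in 3 of 25 settings, Hspa8 in 4 and Adam23 in 6, in each case also when either EGC line was left out, and the adjusted p ran up to 0.124, 0.124 and 0.157. The cause of these changes was not tested.

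Genes with both EGC libraries above all germ cell libraries (341) numbered 199 with the filter at 5 FPKM, 664 with quantile normalization, 617 with equal medians, 722 without small RNA genes, and 601, 663 and 621 without the PGC, iPGC and PGCLC groups. Those below (1010) numbered 608 with equal medians, 525 without small RNA genes and 2706 without the PGC group. Removing genes cannot by itself raise a count, so the setting without small RNA genes also changed the scaling between libraries. Leaving out 1 library gave 427 to 1252 above and 1112 to 2331 below, where fewer libraries make separation easier. Calls against PGCs (82), iPGCs (13) and PGCLCs (11) alone were 31 against PGCs at a pseudocount of 5. They were 8 against PGCs and 4 against PGCLCs without a filter, 23 and 30 against PGCs and iPGCs with library weights, and 12, 8 and 6 with a minimum log2 difference of 1. Without small RNA genes 2 were left against iPGCs and 3 against PGCLCs. Leaving out 1 library gave 7 to 107 against PGCs, 5 to 17 against iPGCs and 0 to 39 against PGCLCs. Replicate numbers of the germ cell libraries did not pair them, as their deviations from the group means correlated at 0.0071, -0.030 and 0.058. A replicate block gave 14 calls (9 higher, 5 lower), with 43 against PGCs, and EGC lines 4 and 7 share no number with the others.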
